A study of Mus musculus with 8 samples.

Results

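The genes described here make, cut or bind hyaluronan. They are the synthases *Has1*, *Has2* and *Has3*, the hyaluronidases *Hyal1* and *Hyal2*, the receptors *Cd44* and *Lyve1*, and the matrix partners *Tnfaip6*, *Ptx3* and *Vcan*. Every non-control probe that carries one of these names was taken, which gave 17 probes of 10 genes, among 56605 probes with 37074 names on the array. The set was chosen on the difference between Pg and Co mice on these same arrays, where *Has2* was known to differ, so the differences of its members are descriptions, and the counts of members past a limit of the fit, given below beside the share of all probes, support nothing. Of the 17 probes, 14 from 9 genes were well above background on at least 4 of the 8 arrays and entered the fit of 33820 probes. The only *Has3* probe was not among them.

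Hyaluronan is a long unbranched sugar chain of the extracellular matrix, built at the plasma membrane by the Has enzymes from UDP-glucuronic acid and UDP-N-acetylglucosamine. Hyaluronidases cut the chain, CD44 and LYVE1 bind it on cell surfaces, and versican, TSG-6 (the product of *Tnfaip6*) and pentraxin 3 (the product of *Ptx3*) tie it to other matrix proteins. In inflamed tissue its synthesis, its fragments and its binding proteins are known to change, and in fat it is part of the matrix around adipocytes and stromal cells.

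RNA of 4 Co mice and 4 Pg mice was labelled with Cy3 and measured on 1 Agilent mouse array each. All were C57BL/6J mice, male according to the methods and 12 weeks old. Co mice received saline and Pg mice received sonicated *P. gingivalis* in 100 μL of saline, both by the intravenous route, and the tissue was taken 18 h later. The bacteria were sonicated before the injection, so the Pg mice are not a model of live infection, and a single time after a single injection was measured.

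Levels are log2 values of the background-subtracted signal after quantile normalization, in which a difference of 1 is a doubling. The count of probes well above background was 34761 to 35831 in Co and 31135 to 34066 in Pg mice. The tissue is labelled as brown adipose tissue, and of 10 brown adipocyte markers 6 were above background on every array and *Ucp1*, *Elovl3*, *Slc27a2* and *Bmp8b* on none, while all 10 skeletal muscle markers were above background on every array. All arrays shared 1 slide, where row 1 held the Co and row 2 the Pg mice, and slide row and group cannot be told apart. In bulk tissue, fewer cells of a type and less RNA per cell cannot be told apart either.

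The probes are 60 bases long, and 30 bases of 6 of them are shown, those of *Has2*, of probes of *Hyal2* and *Vcan* that are compared below, and of a *Cd44* probe at background. They are written 5′ to 3′ as the array gives them, and capitals mark AATAAA, the usual polyadenylation signal.
Has2 A_51_P213359: acacaccctgacAATAAAtgaaactaaaac
Hyal2 A_51_P284577: tgttctaagggggagagaaacatcccctga
Hyal2 A_55_P2733382: aAATAAAtatgccagggatgtgcctcagta
Vcan A_52_P168953: tgaaaggcatcttatggatgtgctcaacct
Vcan A_55_P1960208: ttgagaaccagacatgcttccctctccctg
Cd44 A_55_P2166488: acagatttcttcgacccaatctcacatcca
The whole *Has2* probe lies at chr15:56497356-56497415 on the minus strand of mm9, the build of the array files. The *Hyal2* probes lie at chr9:107474949-107475008 and chr9:107474225-107474284 on the plus strand. The 1st *Vcan* probe shown covers chr13:89865266-89871120 on the minus strand, a span of 5855 bases for a probe of 60, so its bases are split on the genome, whereas the other one lies within chr13:89851810-89851869. The *Cd44* probe lies at chr2:102677971-102678030 on the minus strand. AATAAA was found in 2 of the 17 member probes and in 9.77% of all 56605 probes, and its reverse complement TTTATT in 0 of 17 and in 3.85%. Exons and UTRs of mm9 were not looked up here.

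The 3 synthases differed in how far they stood above background. *Has2*, which encodes the synthase that makes most hyaluronan in many tissues, was higher in Pg mice than in Co mice on every array. Its normalized log2 level was 5.15, 5.30, 5.27 and 5.18 on the Co arrays and 6.17, 6.37, 5.60 and 6.28 on the Pg arrays. The 2 groups did not overlap, the Co arrays lay within a narrow band, and Pg 3 was the lowest of the Pg arrays by a wide margin. Before normalization its processed signal was 36.1, 33.4, 35.9 and 34.6 on the Co arrays and 80.3, 89.1, 48 and 79.9 on the Pg arrays, so the same separation was present in the scanner signal. Co mice had a mean log2 level of 5.23 ± 0.07 (SD, n = 4) and Pg mice one of 6.11 ± 0.34 (SD, n = 4), a difference of 0.88 (SE 0.16, 95% interval 0.51 to 1.25), which is 1.84-fold (1.42 to 2.38). The difference was 0.43 after normexp background correction and 0.51 from the unsubtracted median signal. The lowest Pg array was 1.23-fold above the highest Co array. The probe was well above background on all 8 arrays, but it was dim. Its mean level was at or above that of only 20% of the probes tested.

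Markers of cells that could be a source of *Has2* were read on the same arrays. Of 9 fibroblast markers 5 had positive and 4 negative differences (median 0.07), with a summed signal of 92900 to 140000 in Co and 100000 to 138000 in Pg mice. Of 6 mesothelial markers 3 were tested (median 0.06, sums of 132 to 201 and 100 to 222), and *Lrrn4* and *Upk1b* were at background on every array. Of 6 blood endothelial markers 4 had positive and 2 negative differences (median 0.11, sums of 9710 to 12600 and 11900 to 13400), 1 had an adjusted p under 0.1 by limma (*Kdr*, higher) and 2 an unadjusted p under 0.05 (*Kdr* and *Pecam1*, the second at −0.20). In the fibroblast, mesothelial, adipocyte (median 0.04), brown adipocyte (0.01) and skeletal muscle (−0.08) lists, 0 markers had an adjusted p under 0.1 by limma, and 0, 1, 0, 2 and 2 had an unadjusted p under 0.05. Some markers of these lists varied widely between arrays of a group. The muscle marker *Myh4* read 13.38 to 16.97 on the Co and 11.38 to 17.07 on the Pg arrays, whereas *Acta1* read 18.41 to 18.57 on all arrays. The adipocyte marker *Cidec* read 10.07 to 12.24 and 9.91 to 11.81. The part of these cells in the *Has2* difference was not tested.

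*Has1*, a second synthase, had a far more scattered difference. Its tested probe, A_51_P492456, read 3.82, 5.03, 5.22 and 4.48 on the Co arrays and 7.33, 5.35, 4.51 and 5.43 on the Pg arrays. The groups overlapped and Pg 1 stood apart from the other Pg arrays. The difference was 1.02 (SE 0.59, 95% interval −0.34 to 2.38), and it was 0.46 without Pg 1 and 0.31 from the unsubtracted median signal. The probe passed the background limit on 3 arrays of each group, and the other *Has1* probe, A_52_P440436, on none. *Has3*, the third synthase, had 1 probe that was well above background on Co 4 alone. Its log2 values were 2.06, 2.16, 2.26 and 4.46 on the Co arrays and 3.17, 2.10, 2.13 and 2.92 on the Pg arrays. All but that of Co 4 lie at the background, and no difference is given.

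**Figure D1:**
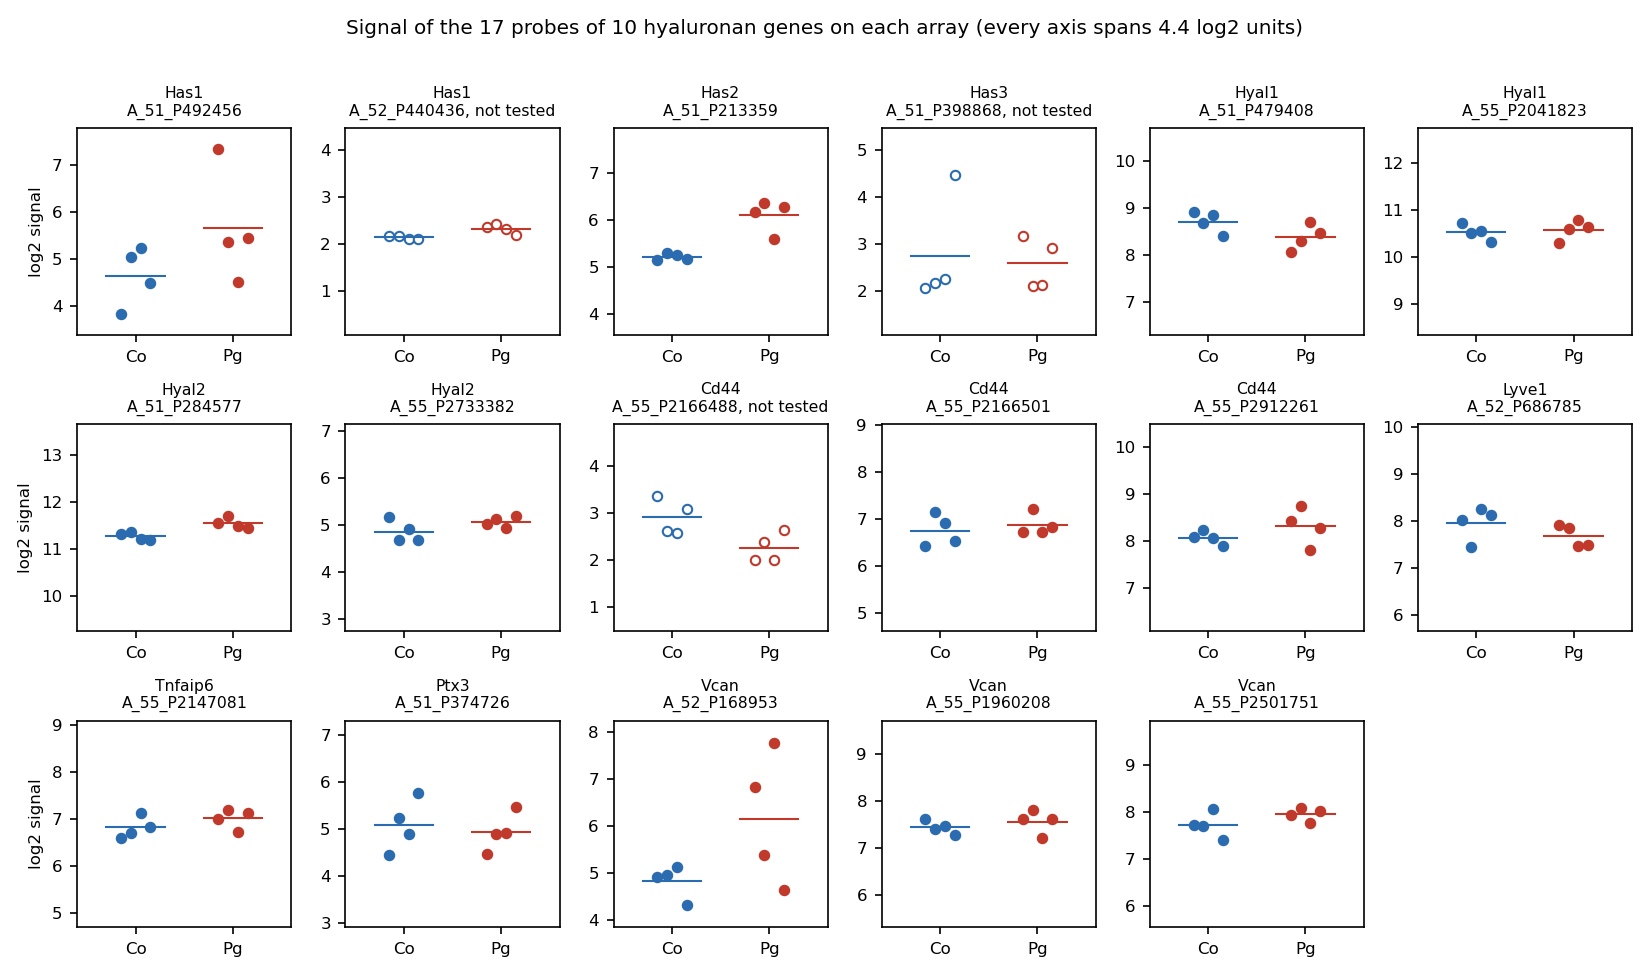
Normalized log2 signal of all 17 member probes on each array; blue points are Co mice, red points are Pg mice, lines are group means, and open points mark the 3 probes that were not tested. Each vertical axis has its own range but the same span, so distances can be compared between panels and levels cannot; *Has2* shows 4 Pg points above the 4 Co points, and *Has1* and *Vcan* A_52_P168953 show the widest scatter among Pg mice.

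The hyaluronidases differed from each other. *Hyal2*, a hyaluronidase anchored at the cell surface, was higher in Pg mice by a small amount. Its probe A_51_P284577 read 11.32, 11.37, 11.22 and 11.20 on the Co arrays and 11.56, 11.71, 11.50 and 11.46 on the Pg arrays. The lowest Pg array lay just above the highest Co array. The mean was 11.28 ± 0.08 (SD, n = 4) against 11.56 ± 0.11 (SD, n = 4), a difference of 0.28 (SE 0.07, 95% interval 0.11 to 0.45), or 1.22-fold. The other *Hyal2* probe, A_55_P2733382, which lies upstream of it on the same strand and holds AATAAA, read 5.17, 4.69, 4.92 and 4.70 on the Co arrays and 5.04, 5.14, 4.94 and 5.21 on the Pg arrays. There the groups overlapped, with a difference of 0.21 (SE 0.12) that was 0.01 in the deposited log2 table.

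*Hyal1*, the lysosomal hyaluronidase, was measured by 2 probes that differ in sign. A_51_P479408 read 8.92, 8.67, 8.84 and 8.39 on the Co arrays and 8.07, 8.30, 8.70 and 8.46 on the Pg arrays, a difference of −0.32 (SE 0.16). A_55_P2041823 read 10.74, 10.52, 10.57 and 10.33 on the Co arrays and 10.30, 10.61, 10.80 and 10.65 on the Pg arrays, a difference of 0.05 (SE 0.13). Both pairs of groups overlapped, the 2 estimates lie 0.37 apart on the log2 scale, and the sign of the smaller one turned without Co 4 or Pg 3 (−0.02 in each case).

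The receptors showed differences no larger than the larger of the 2 group SDs at each tested probe. *Cd44*, the main hyaluronan receptor of leukocytes and stromal cells, read 8.10, 8.25, 8.07 and 7.90 on the Co arrays and 8.43, 8.76, 7.82 and 8.29 on the Pg arrays at probe A_55_P2912261. Pg 1, Pg 2 and Pg 4 lay above all Co arrays and Pg 3 lay below them. The difference was 0.25 (SE 0.19) with all arrays, 0.41 without Pg 3 and 0.10 without Pg 2. Probe A_55_P2166501 had a Co mean of 6.75 ± 0.34 (SD, n = 4) and a Pg mean of 6.86 ± 0.23 (SD, n = 4), a difference of 0.11 (SE 0.18) that ranged from 0.00 (without Co 1 or Pg 2) to 0.24 (without Co 2) with 1 array left out. The *Cd44* probe A_55_P2166488, shown above, passed the background limit on no array.

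*Lyve1*, the receptor of lymphatic endothelium and of some tissue macrophages, read 8.02, 7.45, 8.26 and 8.13 on the Co arrays and 7.92, 7.84, 7.46 and 7.49 on the Pg arrays. Co 2 and the lower pair of Pg arrays lay at the same level, so the groups overlapped. The mean was 7.97 ± 0.36 (SD, n = 4) against 7.68 ± 0.23 (SD, n = 4), a difference of −0.29 (SE 0.19) that was −0.46 without Co 2 and −0.19 without Co 3. Beside it, all 5 lymphatic endothelial markers tested had positive differences (median 0.22, 0 with an adjusted p under 0.1 by limma and 0 with an unadjusted p under 0.05), with a summed signal of 2080 to 3360 in Co and 2500 to 3950 in Pg mice. Of 7 macrophage markers tested 5 had positive and 2 negative differences (median 0.17, again 0 and 0), with sums of 4330 to 6700 and 3720 to 8990, and *Timd4* was not above background on any array. Co 2 was the lowest Co array for *Ccl21a* (8.95), *Mmrn1* (6.24) and *Pdpn* (9.9) but not for *Flt4* and *Prox1*. It was also the lowest for all macrophage markers tested but *Cd68*. The part of lymphatic endothelial cells and macrophages in the *Lyve1* values was not tested.

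Among the matrix partners, *Vcan* stood out for the disagreement of its probes. Versican is a large proteoglycan whose head domain binds hyaluronan. The probe A_52_P168953, which is split on the genome, read 4.93, 4.97, 5.14 and 4.33 on the Co arrays and 6.84, 5.39, 7.77 and 4.64 on the Pg arrays. Pg 1, Pg 2 and Pg 3 lay above every Co array and Pg 4 lay below most of them. The difference was 1.32 (SE 0.64, 95% interval −0.15 to 2.79), and it was 0.78 without Pg 3 and 0.41 in the deposited log2 table. The probes A_55_P1960208 and A_55_P2501751 lie within single stretches of the genome. They gave differences of 0.12 (SE 0.13) and 0.23 (SE 0.14), with overlapping groups. With 1 array left out the first ranged from 0.04 (without Pg 2) to 0.24 (without Pg 3) and the second from 0.12 (without Co 4) to 0.34 (without Co 3). The largest and smallest *Vcan* difference lay 1.20 apart, and on the 2nd and 3rd probe Pg 3, the highest array of the 1st, was the lowest of the Pg arrays.

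*Tnfaip6* encodes TSG-6, which moves the heavy chains of inter-alpha-inhibitor onto hyaluronan and is induced by inflammatory signals in many cells. Its probe read 6.60, 6.71, 7.14 and 6.84 on the Co arrays and 7.01, 7.19, 6.73 and 7.14 on the Pg arrays. The difference was 0.19 (SE 0.14), with 3 Pg arrays at about the level of the highest Co array, and it was 0.12 without Co 1, 0.30 without Co 3 and 0.33 without normalization. *Ptx3*, whose product binds TSG-6 and inter-alpha-inhibitor in hyaluronan matrix and is stored in neutrophils, read 4.45, 5.22, 4.88 and 5.75 on the Co arrays and 4.47, 4.89, 4.91 and 5.46 on the Pg arrays. Its difference was −0.14 (SE 0.30), the groups covered nearly the same range, and the probe was above the background limit on 4 Co but only 2 Pg arrays.

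Over all 14 member probes tested, 11 had positive and 3 negative differences, and their median was 0.20, against a median of −0.04 and 42.3% higher over all 33820 probes. Of the 14, 1 (*Has2*) had an adjusted p under 0.1 with a fold above 1.5, a rule that 1.61% of all probes met, 0.313% as higher in Pg mice. At an adjusted p under 0.1 alone there were 2, *Has2* and *Hyal2*, where 7.82% of all probes passed and 1.82% passed as higher. The same 2 probes had groups that did not overlap, as did 15.8% of all probes, 4.83% with Pg above Co. Because the members were chosen on this contrast, nothing is read from these counts. The count of calls was 1 through *Has2* alone, and *Has2* left it without Co 2 (difference 0.90), Co 3 (0.89), Co 4 (0.86) or Pg 1 (0.86), without normalization (1.05), with the replicate block (0.88), after normexp background correction (0.43) and from the unsubtracted median signal (0.51). *Hyal2* stayed under the adjusted p limit in 2 of 18 alternatives. The direction of the background share depends on the processing: 19.4% of all calls were higher in Pg mice, against 70.2% after normexp, 69.4% from the median signal, 48.4% with scaling to the 75th percentile, 74.1% without normalization and 56.6% in the deposited log2 table.

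**Figure D2:**
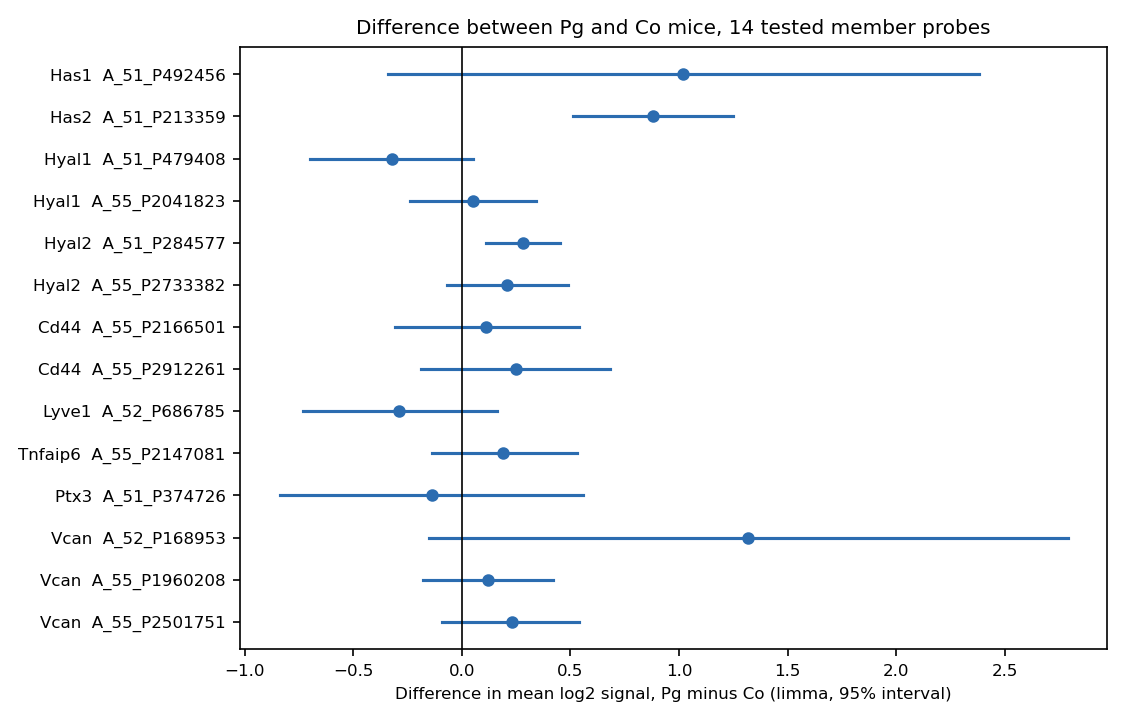
Difference in mean log2 signal, Pg minus Co, for the 14 member probes tested; points are limma estimates and bars are 95% intervals, shown as a description because the set was chosen on this contrast. The bars of *Has2* (0.51 to 1.25) and *Hyal2* A_51_P284577 (0.11 to 0.45) are short beside those of *Has1* (−0.34 to 2.38) and *Vcan* A_52_P168953 (−0.15 to 2.79).

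**Figure D3:**
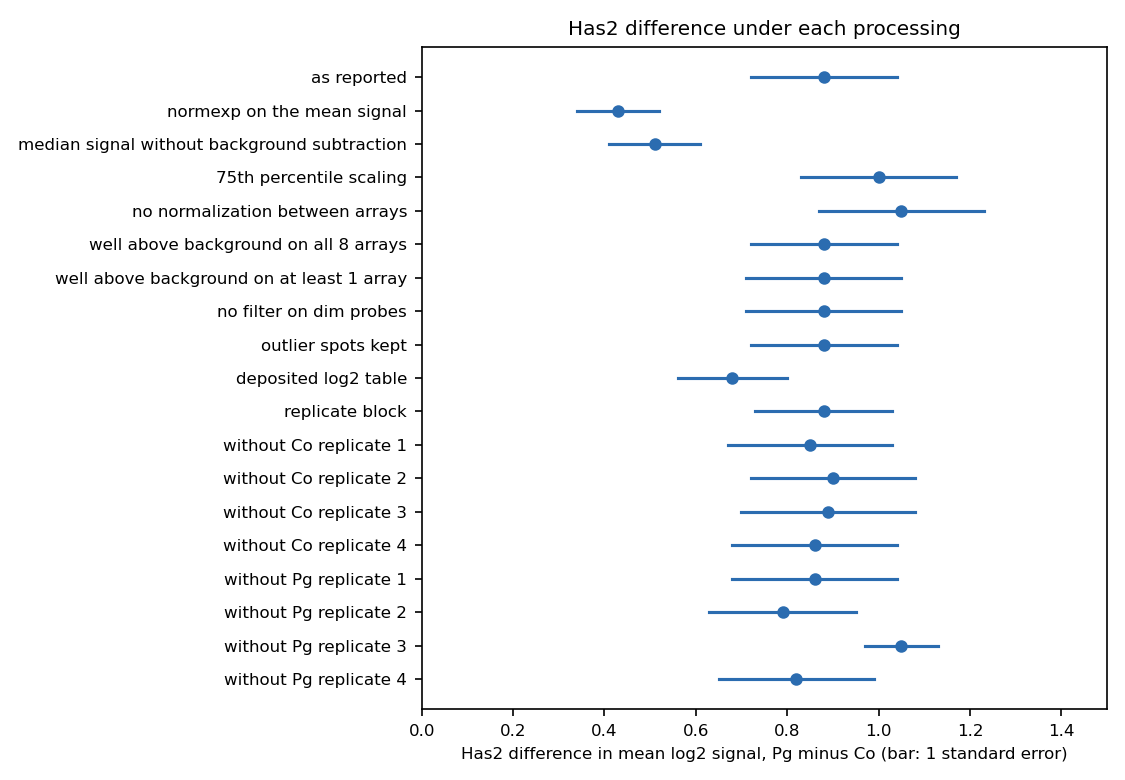
*Has2* difference in mean log2 signal, Pg minus Co, under each processing and with each array left out; points are estimates and bars are 1 standard error. The estimates lie between 0.43 and 1.05, and the smallest standard error, 0.08, is that of the fit without Pg 3.

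Pg 3 differed from the other Pg mice over much of the set. It was the lowest of the 4 Pg arrays for 9 of the 14 member probes tested, where Pg 1 was lowest for 3, Pg 2 for 0 and Pg 4 for 2. Over all probes tested, Pg 3 was the lowest Pg array for 23.7%. Among the cell type lists it was lowest for 9 of 9 fibroblast, 7 of 7 macrophage, 3 of 4 neutrophil and 3 of 5 lymphatic endothelial markers, and for 2 of 10 skeletal muscle, 2 of 6 blood endothelial, 1 of 6 adipocyte, 1 of 6 brown adipocyte and 0 of 3 mesothelial markers. Low values in the fibroblast and macrophage lists were not confined to Pg 3. Co 2 was the lowest Co array for all fibroblast markers but *Dpp4* and all macrophage markers tested but *Cd68*. *Adgre1* read 6.61 on Co 2 and 6.85 on Pg 3, and *Lum* read 10.65 and 10.49. *S100a8* and *S100a9*, neutrophil genes named after their values were seen, read 8.59, 8.32, 5.18 and 6.76 and 10.56, 10.17, 6.99 and 7.38 on Pg 1 to Pg 4, so that *S100a8* on Pg 3 lay within the Co range of 4.56 to 5.33. All 4 neutrophil markers tested had positive differences (median 1.14, 0 with an adjusted p under 0.1 by limma and 3 with an unadjusted p under 0.05), and their summed signal of 40000 to 50100 in Co and 47400 to 54900 in Pg mice came mostly from 1 *Csf3r* probe. Without Pg 3 the *Has2* difference was 1.05, and 4 member probes had groups apart: those of *Has1* (1.40), *Has2*, *Hyal2* (0.30) and *Cd44* (0.41). In that fit of 4 against 3 arrays 23% of all probes had groups apart, 7.66% with Pg above Co, and nothing is read from the members' count. The part of these cells in the differences was not tested.

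**Figure D4:**
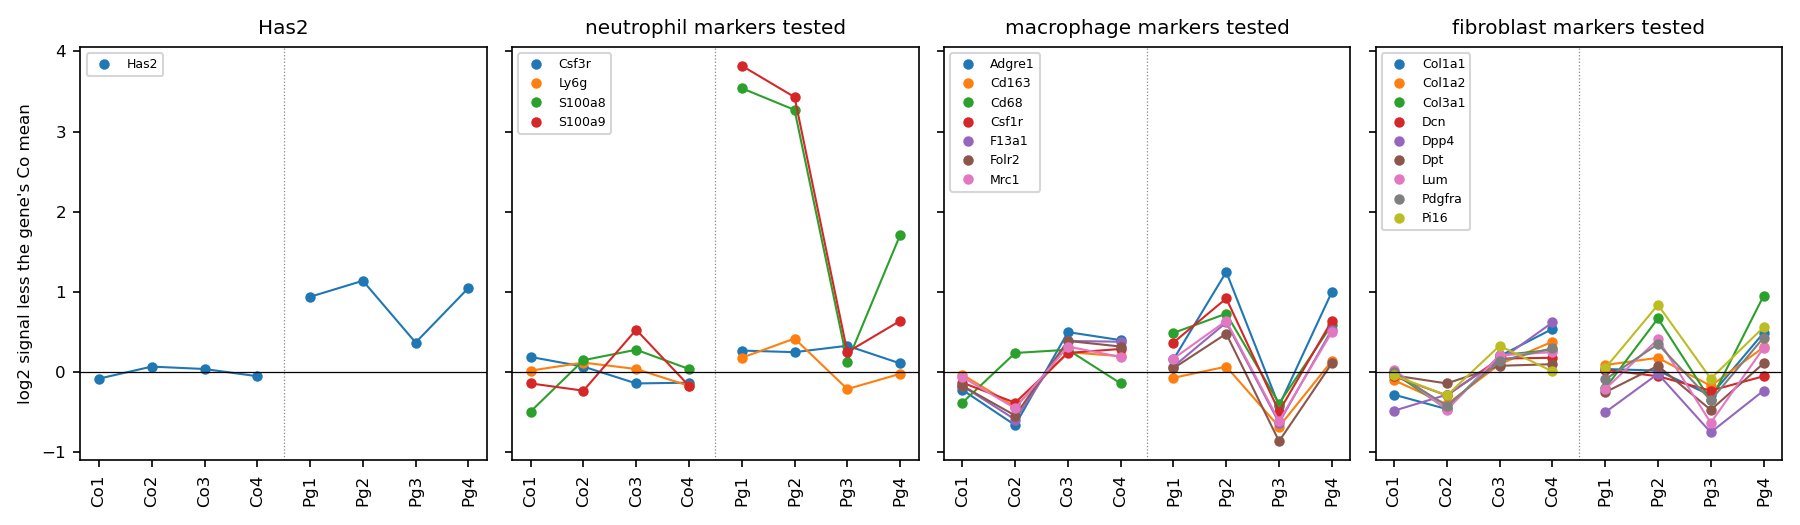
Log2 signal of *Has2* and of the 4 neutrophil, 7 macrophage and 9 fibroblast markers tested, each less its own Co mean, on the 8 arrays; each line joins the values of 1 gene within a group and shows no order of the mice. On Pg 3, *Has2* keeps a positive value while all macrophage and fibroblast markers lie below 0 and *S100a8* and *S100a9* lie near the Co values. On Co 2, all fibroblast markers and all macrophage markers but *Cd68* also lie below 0, and *Has2* lies just above it.

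The other genes of the pathway were taken as a list of 53 genes by role, and 39 of them had a tested probe (the brightest one stands for the gene). The limma fit gave 2 of 39 an adjusted p under 0.1, both higher in Pg mice, and 0 lower, against 2.06% of 22454 genes that passed as higher and 4.19% as lower. With no limit on the adjusted p, 22 were higher and 17 lower, with a median difference of 0.03 (−0.01 over all genes), and 7 had an unadjusted p under 0.05, a limit that 20.3% of all genes passed.

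The genes that make the UDP-sugars, 9 of 9 tested, had a median difference of −0.04, and 0 passed (1 with an unadjusted p under 0.05). The largest were *Gfpt2*, a form of the first enzyme of hexosamine synthesis, at 0.45 (SE 0.23, adjusted p = 0.285 by limma), and *Gnpnat1*, which acetylates glucosamine phosphate, at −0.19 (SE 0.08, adjusted p = 0.214 by limma), which was −0.12 without Co 3 and −0.24 from the unsubtracted median signal, where the adjusted p was 0.0779 by limma. Of 11 other degradation genes only 5 were tested, and 0 passed (0 with an unadjusted p under 0.05). They include *Cemip2*, a cell-surface hyaluronidase, at 0.34 (SE 0.36), which was −0.07 without Pg 3 and whose other tested probes gave 0.33 (SE 0.15) and −0.21 (SE 0.13), and *Gusb*, the lysosomal β-glucuronidase, at 0.18 (SE 0.10), 0.11 without Pg 2.

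Of 8 other receptors and clearance genes 7 had positive differences (median of all 8 0.25), and 1 passed (3 with an unadjusted p under 0.05). *Habp4*, named for binding hyaluronan and known as an RNA-binding protein, read 12.37, 12.50, 12.44 and 12.55 on the Co arrays and 12.69, 12.75, 12.65 and 12.69 on the Pg arrays. The groups did not overlap and the difference was 0.23 (SE 0.06, adjusted p = 0.0854 by limma), but its other probe gave −0.07 (SE 0.07, adjusted p = 0.591 by limma) and the value from the deposited log2 table was 0.09. It stayed under the limit in 4 of 18 alternatives. *Tlr2*, a receptor of bacterial lipoproteins for which hyaluronan fragments have been described as ligands, was at 0.39 (SE 0.21, adjusted p = 0.307 by limma), and *Stab1*, a scavenger receptor of macrophages and sinusoidal endothelium, at 0.28 (SE 0.21, adjusted p = 0.472 by limma). With 1 array left out, *Tlr2* was lowest without Pg 2 (0.20), and *Stab1* was 0.17 without Pg 2 or Pg 4 and 0.46 without Pg 3.

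Link proteins and lecticans were mostly at background, with *Hapln3* (0.03, SE 0.14) the only one of 7 tested. The other *Hapln3* probe tested gave 0.30 (SE 0.15, adjusted p = 0.272 by limma). The 4 tested genes of the inter-alpha-inhibitor chains, which TSG-6 transfers, all had negative differences, with 0 passing (0 with an unadjusted p under 0.05), led by *Itih2* at −0.33 (SE 0.21, −0.15 without Co 4) and *Itih1* at −0.22 (SE 0.18, −0.09 without Co 1). The other *Itih1* probe tested had the opposite sign, 0.19 (SE 0.14). Of 6 genes linked to CD44, 0 passed (0 with an unadjusted p under 0.05). *Spp1*, the secreted CD44 ligand osteopontin, was at 0.67 (SE 0.32, adjusted p = 0.263 by limma) and at 0.32 without Pg 3, where it read 10.65, and *Ezr*, which couples CD44 to actin, was at −0.13 (SE 0.13), −0.03 without Pg 3 and −0.22 without Pg 2.

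Of the 6 proteases that cleave versican, 5 had positive differences (median of all 6 0.15), and 1 passed (3 with an unadjusted p under 0.05). *Adamts9* read 8.95, 8.93, 8.88 and 8.84 on the Co arrays and 9.22, 9.06, 9.16 and 9.09 on the Pg arrays. The groups did not overlap and the difference was 0.23 (SE 0.06, adjusted p = 0.0796 by limma). Its 3 other probes were also higher, by 0.57 (SE 0.14, adjusted p = 0.0789 by limma), 0.28 (SE 0.17) and 0.19 (SE 0.13). *Adamts4*, an aggrecanase that also cuts versican, read 5.23, 6.40, 5.51 and 5.63 on the Co arrays and 6.98, 6.63, 6.15 and 6.89 on the Pg arrays. Its difference of 0.97 (SE 0.28, adjusted p = 0.102 by limma) was larger than that of *Adamts9* and just missed the limit, with Co 2 above the lowest Pg array. The *Adamts4* difference was 0.51 after normexp background correction and 0.55 from the unsubtracted median signal. Over 18 alternatives *Adamts9* was under the limit in 2 and *Adamts4* in 6.

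**Figure D5:**
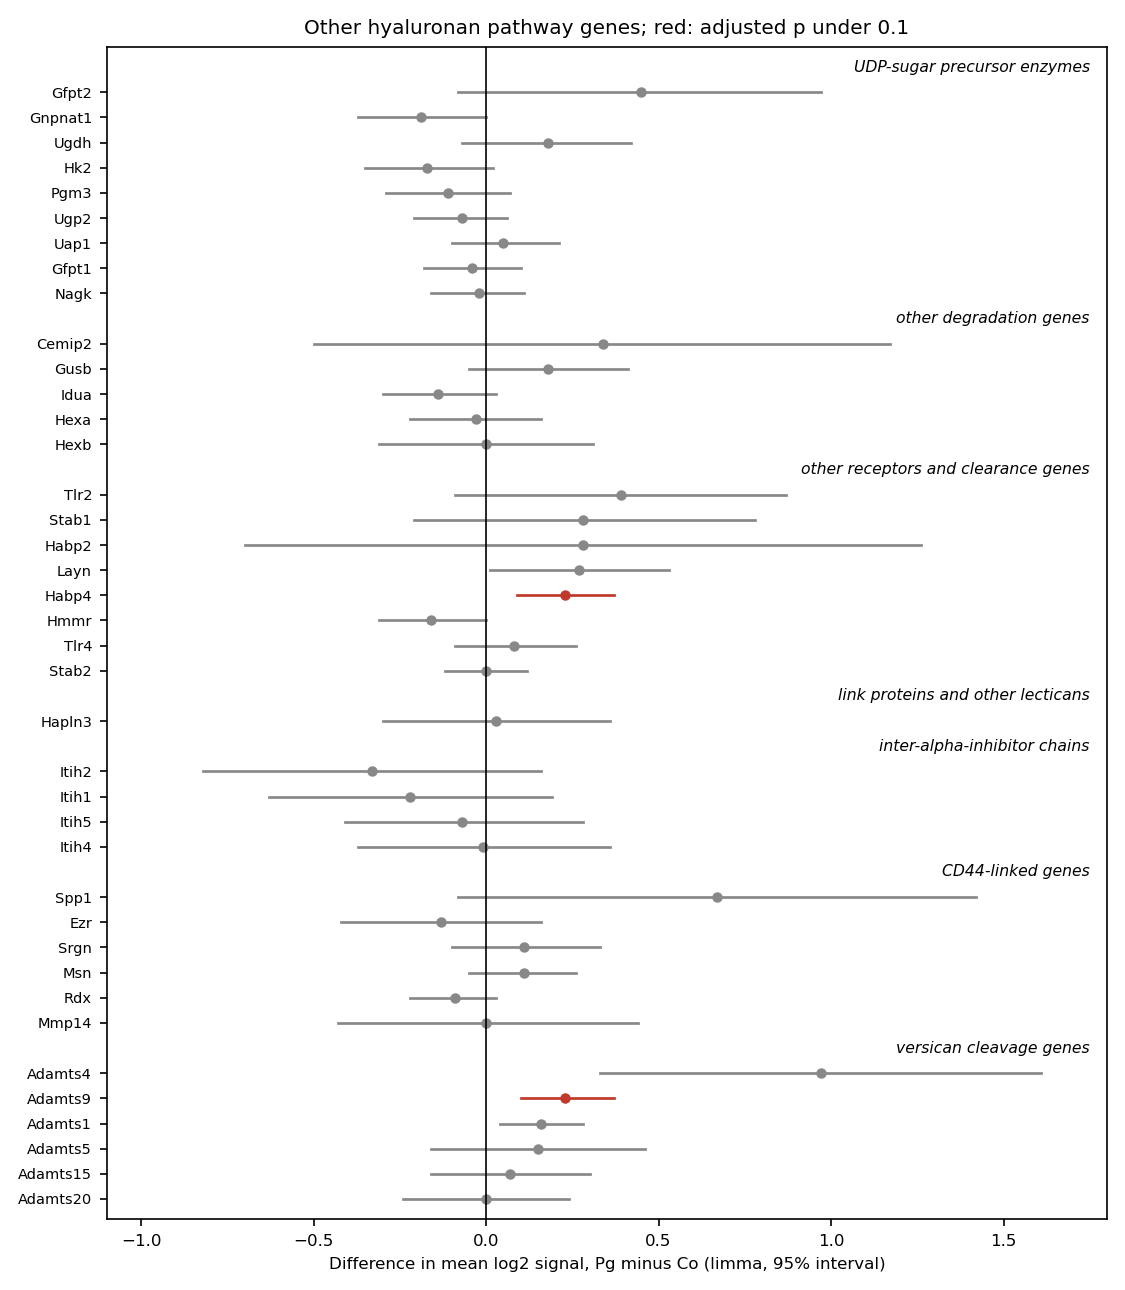
Difference in mean log2 signal, Pg minus Co, for the 39 other hyaluronan pathway genes tested, grouped by role; points are limma estimates of the brightest tested probe, bars are 95% intervals, and red marks an adjusted p under 0.1. *Habp4* and *Adamts9* are the 2 in red, and *Adamts4* and *Spp1* have the largest estimates (0.97 and 0.67).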

How the data were processed

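The authors deposited the output of Agilent Feature Extraction 11.0.1.1 for each array, with the Cy3 intensity of every spot, background-subtracted and not normalized between arrays. The authors also deposited a table of quantile-normalized log2 values, whose background step is not given in the sources used here. It was used as an alternative, and its columns of fold changes and p-values were not used.

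Of 59305 non-control spots, 90 to 150 population outliers per array were left out. The processed signal was averaged per probe, quantile-normalized, raised to at least 1 and log2-transformed. Only probes that passed Feature Extraction's well-above-background mark on 4 or more arrays were tested, by lmFit and eBayes in limma 3.58.1 (R 4.3.3), two-sided, with Benjamini-Hochberg adjustment over 33820 probes. A call needed an adjusted p under 0.1 and a fold above 1.5. Nothing in the labels ties mice of equal number together, and the correlations of same-numbered arrays were −0.07 to 0.18. The number of arrays limits the precision. Gene names came from the array, or from RefSeq by accession for 32994 probes.

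The members, lists and alternatives were chosen with earlier results of these data known. All 10 members were named. Other pathway genes were named where the adjusted p was under 0.1 or the difference was among the 2 largest of their role. Cell type lists are given by counts. Markers named singly, such as *Kdr* and *Pecam1*, were named after their values were seen, apart from those named as at background. Alternatives were other background corrections, normalizations and filters, outlier spots kept, the deposited table, a replicate block and each array left out.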

Additional observations from a re-analysis of the deposited data

Results flagged for a closer look

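The signal of *Cemip2* A_55_P2294184 on Pg 3 stood apart from its group. It read 10.12, while the next Pg array read 8.62 and the lowest 8.40, a gap of 0.87 of the group's range, over Dixon's 95% critical value for 4 arrays. It was 1 of 56 groups checked, and chance marks about 1 in 20.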

How the results depend on the processing

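Of 498 refits of single probes, 8 reversed the sign, all in probes without a call: *Ptx3* without normalization (0.04), without Co 4 (0.09) and without Pg 1 (0.02), *Hyal1* A_55_P2041823 without Co 4 (−0.02) and without Pg 3 (−0.02), *Cemip2* without Pg 3 (−0.07), and *Hapln3* without Co 4 (−0.08) and without Pg 1 (−0.05). With 1 array left out these ranged from −0.35 to 0.09 (*Ptx3*), −0.02 to 0.15 (*Hyal1*), −0.07 to 0.51 (*Cemip2*) and −0.08 to 0.13 (*Hapln3*). The causes were not tested.

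Of the member probes, 1 was called, and 0 were with normexp, with the median signal, without normalization and with the replicate block, where 0 probes of the whole array were called. With 1 array left out the count was 0 to 1. At an adjusted p under 0.1 there were 2, and 1 with normexp, the median signal, scaling to the 75th percentile, the filter on at least 1 array, no filter or the deposited table, 0 without normalization or with the replicate block, and 0 to 1 with 1 array left out. Groups were apart for 2, for 1 with the median signal and the deposited table, for 3 with no filter, and for 2 to 4 with 1 array left out. Of the other pathway genes 2 had an adjusted p under 0.1, 3 with the median signal or the filter on all 8 arrays, 1 with scaling to the 75th percentile, no filter or the deposited table, 0 without normalization, with the filter on at least 1 array or with the replicate block, and 0 to 1 with 1 array left out. The *Has2* difference ranged from 0.43 to 1.05 over 18 alternatives. Because *Has2* was chosen for its difference on these arrays, that range is a description and no sign of stability. Over all probes the count of calls was 546, and it was 3 without Co 3, 27 without normalization, 106 in the deposited table and 697 without Pg 3.

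Dim probes limit what can be said of *Has1*, *Has2*, *Has3* and *Ptx3*, and of *Vcan* A_52_P168953 and *Hyal2* A_55_P2733382. The Co mean of *Has2* was 5.23, against 5.07 for *Ptx3*. Same-numbered arrays share a slide column. The correlations of their deviations were 0.06, −0.03, −0.07 and 0.18 for numbers 1 to 4; numbers 1 and 4 correlated best with their own number, and numbers 2 and 3 with each other's, so the numbers were not taken as pairs.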

Other observations

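*Cemip*, which encodes a secreted hyaluronan-degrading protein and was left out of the fit because it was at background on most arrays, had 1 probe with a bright spot on a single array. A_55_P2069659 had a processed signal of 1740 on Pg 3 and of 6.03 to 13.6 on the other 7 arrays, and the mean (1860) and median (1920) pixel signals of that spot were alike. The other *Cemip* probe, A_51_P456113, passed the background limit on no array.

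Such single bright values were more frequent in Pg mice. The number of probes at least 2 log2 units above all 7 other arrays was 159 to 188 of 56605 on each Co array and 475 to 573 on each Pg array, and among the probes tested 10 to 16 on each Co array and 68 to 75 on each Pg array.

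The antisense transcript *Has2os* was well above background on 0 Co arrays and on Pg 3 alone, with log2 values of 3.92, 3.80, 3.95 and 2.88 on the Co arrays and 4.21, 3.76, 5.16 and 4.10 on the Pg arrays.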
